A study of Mus musculus with 6 samples.

Results

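Genes of mitochondrial fatty acid oxidation and of the citric acid cycle were compared between Esrrb mutant and wild-type mouse stria vascularis, the potassium-secreting epithelium of the cochlear lateral wall. The set was a fixed list of 38 genes, and 36 of them could be measured, out of 18193 genes with a probe set of their own on the array. A gene counted as measured where a probe set carried its symbol alone, and its probe set with the highest mean over all arrays stood for it. Cpt1b shared its 1 listed probe set with other genes and Acsl1 had none with its symbol alone, so neither is analysed here. The mutant group was 3 pools of stria from mice with a conditional knock-out of Esrrb (called Errb or Nr3b2 in the labels), which encodes estrogen-related receptor beta, an orphan nuclear receptor. The reference was 3 pools from wild-type mice. Each pool drew on 10 animals and was hybridised to 1 array. Only wild-type replicate 1 carries an age, postnatal day 3 to 5, and no source used here gives the Cre driver, the deleted exons or the strain.

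In beta-oxidation, fatty acids are activated to acyl-CoA, carried into mitochondria on carnitine and shortened in repeated rounds to acetyl-CoA, with electrons leaving through the electron transfer flavoprotein. The pyruvate dehydrogenase complex makes acetyl-CoA from pyruvate, and the citric acid cycle oxidises it to feed the respiratory chain. Estrogen-related receptors are known, mostly from work on the alpha and gamma members in heart, muscle and brown fat, to bind the promoters of many of these genes together with the coactivator PGC-1alpha. Strial marginal cells, which express Esrrb, are packed with mitochondria that supply the sodium pump.

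Promoter sequence was available from RefSeq (build GRCm38.p6) for 33 of the 36 genes, in 39 windows of 250 bases before an annotated start. Of these windows, 6 belong to Ogdh. The core of the estrogen-related receptor site, AAGGTCA, read on both strands, was present in 1 of the 39 windows (2.56%), that of Acadm, against 4.08% of all 32851 windows. The longer form TNAAGGTCA, which contains the core, was in 0 of the 39 and in 1.14% of all windows. The general promoter element CCAAT was in 20 windows from 17 genes (51.3%, against 33.85% of all windows), and GGGCGG, a GC box, in 22 windows from 21 genes (56.4%, against 32.7%). A match of letters is a description of the sequence, not a bound site. The windows below are those of Acadm, the textbook target with the core site, and of Mdh1, Suclg1 and Dlat, 3 of the 4 genes with the smallest unadjusted p; Ogdh, the other, is not shown because of its several starts. Capitals mark the receptor core, the CCAAT element or the GC box on either strand, and each line runs 5′ to 3′ on the strand of the gene.
Acadm: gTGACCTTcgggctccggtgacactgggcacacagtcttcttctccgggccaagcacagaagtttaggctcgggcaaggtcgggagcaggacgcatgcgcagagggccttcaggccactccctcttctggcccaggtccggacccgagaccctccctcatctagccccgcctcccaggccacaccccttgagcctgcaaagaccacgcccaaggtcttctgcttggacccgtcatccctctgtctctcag
Mdh1: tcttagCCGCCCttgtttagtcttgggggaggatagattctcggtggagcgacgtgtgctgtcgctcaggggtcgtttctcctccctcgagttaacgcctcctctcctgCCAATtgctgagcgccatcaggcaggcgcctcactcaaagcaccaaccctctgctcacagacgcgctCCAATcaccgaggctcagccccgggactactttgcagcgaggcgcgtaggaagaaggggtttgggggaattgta
Suclg1: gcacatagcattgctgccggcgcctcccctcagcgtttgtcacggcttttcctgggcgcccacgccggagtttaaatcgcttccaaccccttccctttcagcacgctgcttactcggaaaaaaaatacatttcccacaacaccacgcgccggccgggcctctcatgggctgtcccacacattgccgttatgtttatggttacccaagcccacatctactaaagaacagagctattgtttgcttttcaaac
Dlat: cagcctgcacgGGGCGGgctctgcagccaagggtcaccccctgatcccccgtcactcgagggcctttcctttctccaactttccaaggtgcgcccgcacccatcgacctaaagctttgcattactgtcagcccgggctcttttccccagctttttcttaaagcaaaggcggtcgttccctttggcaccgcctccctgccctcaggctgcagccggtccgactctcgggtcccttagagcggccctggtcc
The Acadm window is chr3:153944644-153944893 on the minus strand, and its core site begins 249 bases before the start, on the opposite strand. The Mdh1 window is chr11:21571935-21572184 on the minus strand, with the CCAAT element at 2 places and the GC box at 1. The Suclg1 window is chr6:73248255-73248504 on the plus strand and holds none of the 3 motifs. The Dlat window is chr9:50659781-50660030 on the minus strand, with the GC box at 1 place.

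Signals are given on the deposited log2 scale, differences are mutant minus wild type on that scale, and errors of differences are the SD over the 3 same-numbered pairs. Array levels followed the pair more than the genotype: array medians were 6.08, 6.94 and 6.38 in mutant replicates 1 to 3, against 6.07, 6.95 and 6.42 in wild type. The pair, taken from the replicate numbers, was a block in the test. This was limma's moderated test with Benjamini-Hochberg adjustment over all 45037 probe sets, at a threshold of 0.05. Whether the pools came from separate litters is not stated, so p-values cover only the spread among these 6 pools. An exact permutation test of 3 against 3 that ignores the pairs could not go below p = 0.1. Within pairs fewer arrangements are possible, so a paired exact test would have a higher floor. Signals of different probe sets cannot be set against each other, so levels are not compared between genes; mean signal only served to pick probe sets and examples. The targeted gene itself did not separate the genotypes. The Esrrb probe set with the highest mean signal read 9.76, 10.28 and 9.98 in the mutant, against 9.68, 10.60 and 9.96 in wild type, and its 2 other probe sets differed by -0.18 and -0.42 without passing. Where the probe sets lie relative to the deletion is not given, so they check nothing about the labels. Of 9 measured marginal cell markers, Esrrb itself included, all had negative means. In 6 the mutant was lower in every pair, against 9.03% of all genes, and 4 passed as lower, against 0.132%. Among those 4 was the potassium channel subunit gene Kcne1 (-4.32 ± 0.30, adjusted p = 0.00373).

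None of the 36 genes passed the test in either direction, and their smallest adjusted p was 0.317. Among all genes 0.132% passed as lower and 0.0165% as higher in the mutant. At an unadjusted p under 0.05, 13 of the 36 were lower (36.1%) and 0 were higher, against 3.31% and 4.04% of all genes. The mean difference was below 0 for 30 of the 36, as it was for 48.6% of all genes. In 18 of the 36 (50%) the mutant was lower in every pair, against 9.03% of all genes, and in 1 it was higher in every pair, against 12.9%. The 9.03% counts exact ties as not lower. This share became 16.3% after quantile normalization and 16% after median centring, while the count of the 36 stayed at 18. The median difference of the 36 was -0.12, which is 7.94% less signal, beside a median of 0.00 over all genes. Pair medians of the 36 were -0.11, -0.12 and -0.17, whereas those of all genes were 0, 0 and 0.02.

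All 36 genes lay above the 40th percentile of mean level, where the background was little different: 4.06% of genes were lower and 5.01% higher at an unadjusted p under 0.05. In that stratum 10.3% were lower and 15.6% higher in every pair, and 44.1% had a mean below 0. Differences within the set were small and ran from -0.42 for Mdh1 to 0.11 for Pdk4. No gene had 95% limits that reached 1 or -1, with -0.63 the lowest limit (Idh3a) and 0.56 the highest (Pdk4). Mutant and wild-type ranges overlapped for every one of the 36, and the spread between pairs was wider than the difference within them. Among all genes 0.385% had a mutant range below and 0.682% above that of wild type. Without the pairs in the fit, 0 of the 36 passed and 0 had an unadjusted p under 0.05, against 0.0055% and 0.308% of all genes. When pair 1, 2 or 3 was left out, the count of 13 became 5, 6 and 6, against 2.85%, 2.18% and 2.96% of all genes, in fits with fewer degrees of freedom.

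**Figure D1:**
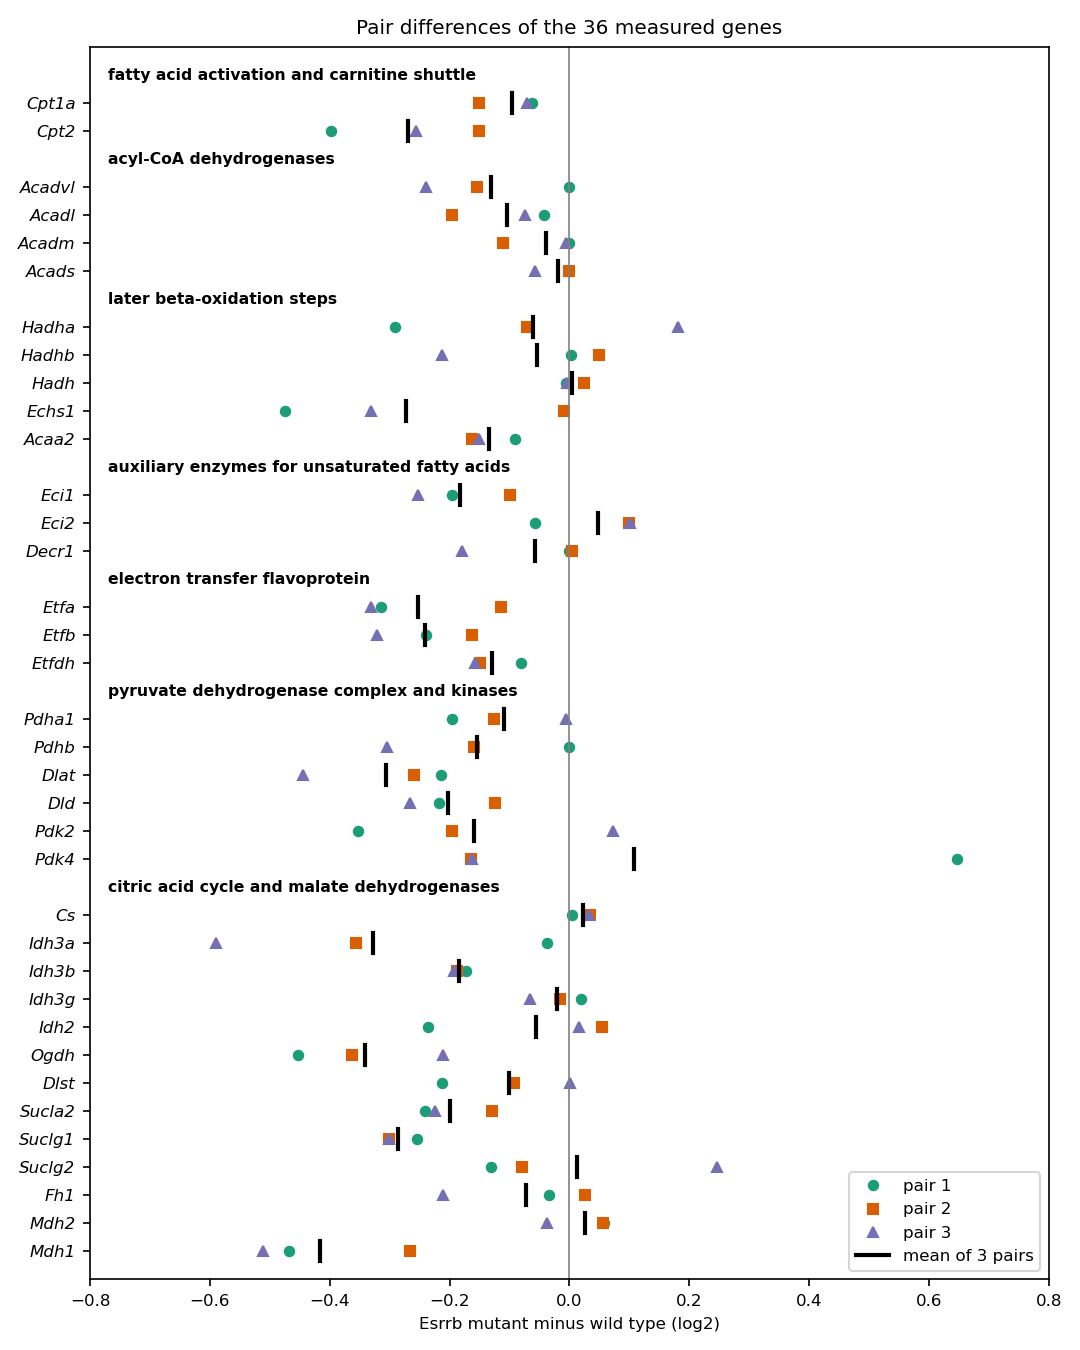
Differences in log2 signal, Esrrb mutant minus wild type, for each of the 36 genes by role. Coloured points are the 3 pairs and black bars their mean; points lie mostly left of 0, from -0.42 (mean, Mdh1) to 0.11 (mean, Pdk4).

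**Figure D2:**
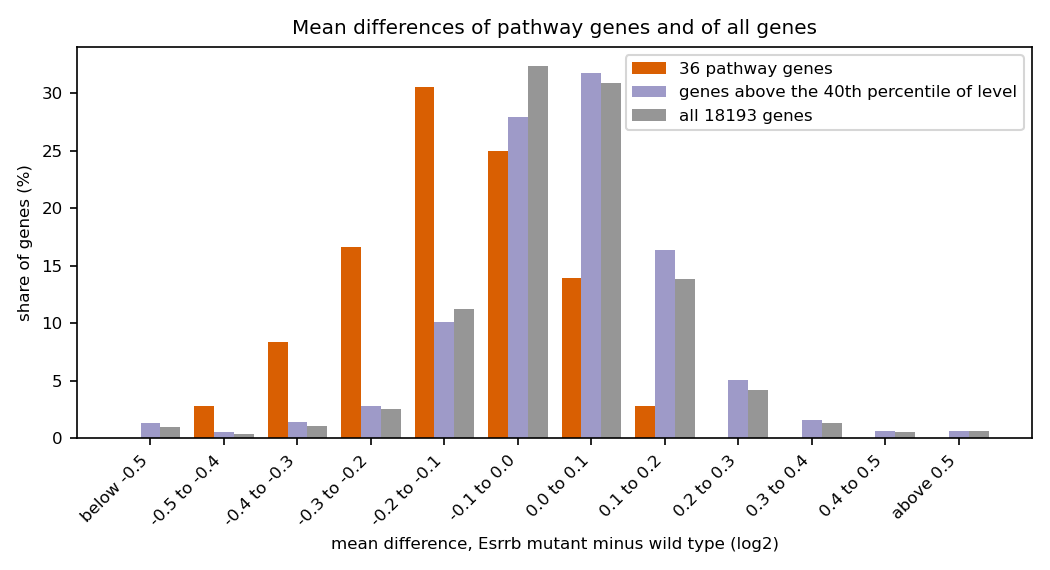
Share of genes (%) by mean log2 difference, Esrrb mutant minus wild type, in bins 0.1 wide, for the 36 pathway genes, for genes above the 40th percentile of level and for all 18193 genes. Of the pathway genes 30.6% lay between -0.2 and -0.1, against 11.2% of all genes, and none lay above 0.2.

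RNA quality and cell markers were not level between the genotypes. For Gapdh, the 3′ control probe set exceeded the 5′ one by 2.57, 0.16 and 0.51 in mutant replicates 1 to 3, against 2.28, 0.21 and -0.04 in wild type, so this gap was wider in the mutant in pairs 1 and 3. The same gap for Actb was 1.35, 0.47 and 0.49 in the mutant, against 1.01, 0.52 and 0.18 in wild type. Of the 36 genes, 26, 27 and 29 were lower in pairs 1 to 3, with exact ties counted as not lower. The same counts over all 18193 genes were 6103, 8800 and 8318. The part of RNA quality in the difference was not tested. The summed signal of the 9 marginal cell markers spanned 12.2 to 13.2 on the log2 scale in the mutant and 13.4 to 14.3 in wild type, with pair medians of -1.33, -1.31 and -1.07. Intermediate cell and melanocyte markers had a median difference of -0.64, with 9 of 12 below 0, 8 lower at an unadjusted p under 0.05 and 0 passing, and a summed signal of 12.5 to 13.3 in the mutant and 13.0 to 14.0 in wild type. Basal cell markers had a median difference of -0.18, with 5 of 7 below 0. At an unadjusted p under 0.05, 4 were lower and 1 was higher, and 1 passed as lower (adjusted p = 0.0304). Their summed signal was 13.2 to 14.2 in the mutant and 13.9 to 14.8 in wild type. Endothelial markers were below 0 in 10 of 10 with 0 passing (median -0.20), and their summed signal was 10.9 to 12.3 in the mutant and 11.2 to 12.3 in wild type. Neuronal markers had 9 of 10 means above 0, 0 passing and pair medians of 1.03, 0.24 and 0.28; their summed signal was 10.3 to 11.3 in the mutant and 10.0 to 10.5 in wild type. In bulk tissue, fewer marginal cells and less RNA per cell cannot be told apart. Markers of skeletal muscle, a tissue rich in these enzymes, had a summed signal of 9.02 to 9.87 in the mutant and 8.91 to 9.96 in wild type, with 7 of 11 below 0 and 0 passing. Adipocyte markers spanned 8.55 to 9.56 in the mutant and 8.33 to 9.57 in wild type, with 3 of 8 below 0 and 0 passing. The part of these cell types in the difference of the oxidation genes was not tested.

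Entry of fatty acids into mitochondria was represented by the carnitine palmitoyltransferases, both lower in the mutant of every pair. Cpt2, the inner membrane enzyme that hands the acyl group back to CoA, read 7.73, 8.82 and 8.40 in the mutant, against 8.13, 8.97 and 8.65 in wild type. Each mutant pool was below its partner while the groups overlapped, and the difference was -0.27 ± 0.12 (95% limits -0.47 to -0.07, limma adjusted p = 0.542). Cpt1a, the outer membrane enzyme that is the regulated step of import, read 8.52, 9.91 and 9.70 in the mutant and 8.59, 10.07 and 9.77 in wild type. That is a difference of -0.10 ± 0.05 (adjusted p = 0.756), and its 2 other probe sets were above 0, with the largest at 0.17, so the direction of Cpt1a depends on the probe set.

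The acyl-CoA dehydrogenases, which start each round of beta-oxidation and differ by chain length, had negative means in 4 of 4, between -0.13 and -0.02. Acadm, the medium-chain enzyme and a classical estrogen-related receptor target, read 9.27, 10.47 and 10.33 in the mutant, against 9.27, 10.59 and 10.34 in wild type. Its genotypes were nearly level, with exactly the same deposited value in pair 1 and a difference of -0.04 ± 0.06 (95% limits -0.21 to 0.13, adjusted p = 0.886). Acadvl, for very long chains, differed by -0.13 ± 0.12, Acadl, for long chains, by -0.10 ± 0.08 and Acads, for short chains, by -0.02 ± 0.03. Of these 3, only Acadl was lower in every pair, since Acadvl had equal values in pair 1 and Acads in pairs 1 and 2. Such exact equality occurred in pair 1 for 5 of the 36 genes, and for 34.2% of all probe sets.

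The enzymes of the later steps were mixed. Hadh, the hydroxyacyl-CoA dehydrogenase for shorter chains, read 11.88, 12.50 and 12.20 in the mutant, against 11.89, 12.47 and 12.20 in wild type, with both genotypes near level in every pair (0.00 ± 0.02, adjusted p = 0.987). Echs1, the short-chain enoyl-CoA hydratase, differed by -0.27 ± 0.24, almost wholly from pairs 1 (-0.47) and 3 (-0.33), with -0.01 in pair 2. Those are the pairs with the wider Gapdh gap in the mutant, whose part was not tested. Acaa2, the thiolase that releases acetyl-CoA, was more even over pairs, at -0.13 ± 0.04, and all 3 of its probe sets were below 0. The subunits of the trifunctional protein, which handles long-chain intermediates, varied by pair or probe set: Hadha differed by -0.06 ± 0.24, with opposite signs in pairs 1 and 3, and Hadhb by -0.05 ± 0.14. A second Hadhb probe set was lower in every pair, by -0.27, -0.16 and -0.31 (limma unadjusted p = 0.0151, adjusted p = 0.530).

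Auxiliary enzymes that prepare unsaturated fatty acids for the spiral also differed among themselves. Eci1, an enoyl-CoA isomerase of mitochondria, was lower in every pair (-0.18 ± 0.08, adjusted p = 0.691). Eci2, an isomerase also found in peroxisomes, read 9.68, 10.55 and 10.04 in the mutant and 9.74, 10.45 and 9.94 in wild type. It was higher in pairs 2 and 3 and lower in pair 1 (0.05 ± 0.09, adjusted p = 0.871). Decr1, a dienoyl-CoA reductase, was at -0.06 ± 0.10.

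The electron transfer flavoprotein, which passes electrons from the acyl-CoA dehydrogenases to ubiquinone, was lower in every pair in 3 of 3 genes. Etfb, its beta subunit, read 9.67, 10.81 and 10.78 in the mutant, against 9.91, 10.98 and 11.10 in wild type (-0.24 ± 0.08, 95% limits -0.42 to -0.06, adjusted p = 0.546). Etfa, the alpha subunit, read 9.68, 10.41 and 10.32 in the mutant, against 9.99, 10.52 and 10.65 in wild type (-0.25 ± 0.12, adjusted p = 0.563). The 2 subunits work as a dimer, and in both the mutant was below its partner in every pair while the groups overlapped. Etfdh, the membrane enzyme that takes the electrons on, differed by -0.13 ± 0.04, and its second probe set by 0.04.

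Catalytic subunits of the pyruvate dehydrogenase complex were below 0 in 4 of 4. Dlat, the acetyltransferase core, read 7.37, 8.59 and 7.93 in the mutant, against 7.59, 8.85 and 8.37 in wild type. It was lower in every pair (-0.31 ± 0.12, 95% limits -0.50 to -0.11, adjusted p = 0.468), and of its 2 other probe sets 1 was at -0.28 and 1 at 0.03. Dld, the dehydrogenase that this complex shares with the oxoglutarate dehydrogenase complex, differed by -0.20 ± 0.07, also lower in every pair. Pdhb, a subunit of the decarboxylase, read 10.15, 10.84 and 10.52 in the mutant and 10.15, 11.00 and 10.82 in wild type. It had the same value in pair 1 and was lower in the other pairs (-0.15 ± 0.15, adjusted p = 0.750), while its partner Pdha1 differed by -0.11 ± 0.10. The second Pdhb probe set was at 0.06, averaging both gave -0.05, and the difference was -0.08 without pair 3.

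The kinases that switch the complex off did not move in step with each other. Pdk4, induced by fasting and a known estrogen-related receptor target in muscle, read 6.48, 6.72 and 5.90 in the mutant, against 5.84, 6.88 and 6.07 in wild type. Its positive mean came from pair 1 alone, where the mutant was 0.65 higher, and it was 0.16 lower in each of the others (0.11 ± 0.47, 95% limits -0.35 to 0.56, adjusted p = 0.882). Without pair 1 the difference was -0.16. Pdk2, a more widely expressed kinase, differed by -0.35, -0.20 and 0.07 in pairs 1 to 3.

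The largest difference of the set belonged to Mdh1, the cytosolic malate dehydrogenase of the malate-aspartate shuttle, which carries reducing equivalents into mitochondria. It read 10.93, 11.92 and 11.70 in the mutant, against 11.39, 12.19 and 12.21 in wild type, so every mutant pool was below its partner. The difference was -0.42 ± 0.13, a 1.33-fold higher signal in wild type (95% limits -0.62 to -0.21, unadjusted p = 0.00294, adjusted p = 0.317). All 5 Mdh1 probe sets had negative means, but the other 4 lay between -0.20 and -0.01. Mdh2, the mitochondrial enzyme of the cycle, read 11.76, 12.23 and 11.81 in the mutant and 11.70, 12.18 and 11.84 in wild type (0.03 ± 0.05, adjusted p = 0.925). Its second probe set was at -0.21, so the paralogs' contrast rests on the probe sets compared, and the difference between the paralogs was not tested.

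Around oxoglutarate and succinyl-CoA, 3 of 5 genes of the cycle were lower in every pair and none passed. Ogdh, the first enzyme of the oxoglutarate dehydrogenase complex, read 7.26, 9.66 and 9.51 in the mutant, against 7.71, 10.02 and 9.72 in wild type. It was lower in every pair (-0.34 ± 0.12, 95% limits -0.54 to -0.14, adjusted p = 0.415), while a second probe set was at 0.10. Suclg1, the subunit that both forms of succinyl-CoA ligase share, read 9.45, 10.34 and 10.01 in the mutant, against 9.70, 10.65 and 10.31 in wild type. Its pairs were among the most even of the set, at -0.25, -0.30 and -0.30 (-0.29 ± 0.03, 95% limits -0.45 to -0.12, adjusted p = 0.415). Sucla2, the subunit that makes the ligase form ATP, read 9.88, 10.56 and 9.92 in the mutant, against 10.12, 10.69 and 10.14 in wild type (-0.20 ± 0.06, adjusted p = 0.632). Another Sucla2 probe set was higher in every pair, at 0.11, and averaging its probe sets gave -0.06. Its GTP-forming counterpart Suclg2 had no common direction, at -0.13, -0.08 and 0.25 in pairs 1 to 3, and Dlst, the core of the oxoglutarate complex, differed by -0.10 ± 0.11.

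Among the isocitrate dehydrogenases none passed, and values varied with the probe set. Idh3a, the catalytic subunit of the NAD-dependent enzyme, differed by -0.04, -0.36 and -0.59 in pairs 1 to 3 (-0.33 ± 0.28, adjusted p = 0.659), and all 4 of its probe sets had negative means. Idh3b, a regulatory subunit, had the most even pairs among the genes lower in all of them, at -0.17, -0.19 and -0.19 (-0.18 ± 0.01, adjusted p = 0.641), and its other probe sets were at -0.05 and -0.08. Idh3g, the other regulatory subunit, was at -0.02 ± 0.04, but its second probe set was at -0.23 and lower in every pair. Idh2, the NADP-dependent mitochondrial enzyme, differed by -0.06 ± 0.16. Citrate synthase, Cs, which opens the cycle and often serves as a gauge of mitochondrial content, was the 1 gene higher in every pair, by 0.00, 0.03 and 0.03. Its other probe sets were at -0.05 and -0.31. Fumarate hydratase, Fh1, was at -0.07 ± 0.12.

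**Figure D3:**
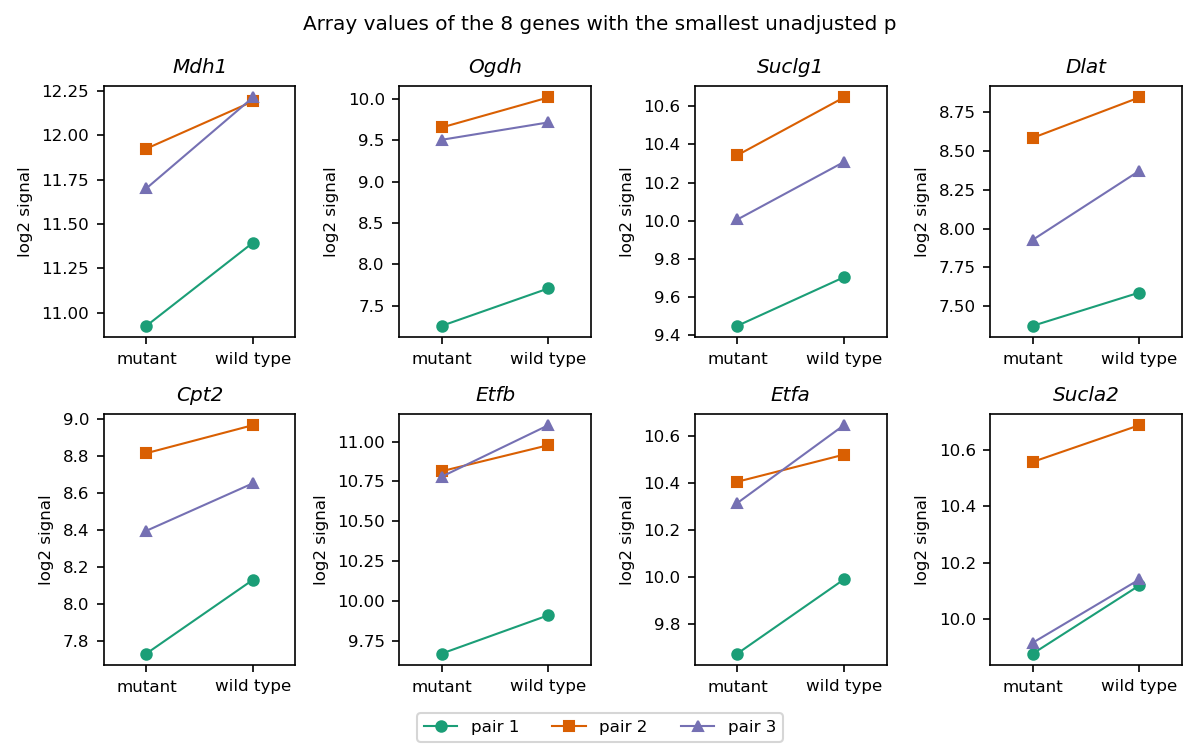
Log2 signal on each array for the 8 genes with the smallest unadjusted p, mutant left and wild type right, with a line and symbol for each pair. Every line climbs towards wild type, while the range over the 3 pairs is wider than the mean gap between genotypes in each panel.

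Probe sets of the same gene were not always alike. The 36 genes had 74 probe sets, of which 57 had a negative and 17 a positive mean difference, and 0 passed; of all probe sets 51.1% had a negative mean. Of 23 genes with several probe sets, 12 had only negative means and 11 were mixed. Averaging a gene's probe sets left 8 of the 36 lower at an unadjusted p under 0.05 in place of 13 (4.17% of all genes), and 20 lower in every pair in place of 18 (11.9% of all genes). It brought the differences of Mdh1 to -0.17, Ogdh to -0.12, Dlat to -0.19 and Cpt2 to -0.16.

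The rest of the citric acid cycle and its shuttles was read from a separate list. Of its 16 measured enzymes and carriers 0 passed, 8 were below 0 and 5 were lower at an unadjusted p under 0.05, against 3.31% of all genes, with 0 higher. Got1, the cytosolic aspartate aminotransferase that works with Mdh1 in the shuttle, had the smallest p of the list, at -0.76 ± 0.17 (-0.68, -0.65 and -0.96 in pairs 1 to 3, adjusted p = 0.124). Sdhd and Sdhb, subunits of succinate dehydrogenase, which also belongs to the respiratory chain, differed by -0.39 ± 0.15 and -0.26 ± 0.15 (adjusted p = 0.381 and 0.604). The list's median was -0.07, nearer 0 than that of the 36 genes, with pair medians of -0.18, -0.06 and -0.03. The list was split, with 6 of the 16 lower and 2 higher in every pair, against 9.03% and 12.9% of all genes.

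The lists of fatty acid supply, peroxisomal beta-oxidation and pyruvate entry had medians near 0 and no member that passed. Uptake and binding genes (9 measured) had a median of -0.02. Fabp3, the heart-type fatty acid binding protein, differed by -0.14, -0.87 and -1.47 in pairs 1 to 3 (-0.83 ± 0.67, adjusted p = 0.555), and Fabp5, the epidermal type, by 0.44 ± 0.46 (adjusted p = 0.695). Other acyl-CoA synthetases and thioesterases (12 measured) had a median of -0.01, with 6 below 0 and 6 above. The mitochondrial thioesterase Acot13 was lower in every pair (-0.38 ± 0.16, adjusted p = 0.405), and Acss1, of the same list, was at 0.12 ± 0.10. Carnitine transport and malonyl-CoA control (8 measured) had a median of 0.00, with 4 below 0 and 4 above. Acacb, which makes the malonyl-CoA that inhibits Cpt1, was at -0.16 ± 0.08, and Cpt1c, of the same list, at 0.12 ± 0.17. Peroxisomal beta-oxidation (12 measured) had a median of -0.01 and 0 genes lower in every pair, against 9.03% of all genes. Pyruvate entry and the remaining dehydrogenase regulators (7 measured) had a median of 0.00, with 3 below 0 and 4 above. The pyruvate carrier subunit Mpc1 was at -0.31 ± 0.31 (adjusted p = 0.718).

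Regulators of oxidative metabolism had no common direction, with 7 below 0 and 9 above. Of 16 measured 0 passed and their median was 0.04. Ppargc1a, which encodes the coactivator PGC-1alpha, differed by -0.70, 0.00 and -1.23 in pairs 1 to 3 (-0.64 ± 0.62, adjusted p = 0.659). Nrip1, a corepressor of nuclear receptors, was higher in every pair (0.33 ± 0.21, adjusted p = 0.555). Genes that gauge mitochondrial mass, such as channels, import pores and chaperones (14 measured), had a median of -0.04, with 0 passing. Of the 14, 10 were below 0 and 6 were lower in every pair, against 48.6% and 9.03% of all genes. In 1 the mutant was higher in every pair, against 12.9% of all genes. Vdac2, an outer membrane channel gene, differed by -0.20 ± 0.07 and Hspa9, the mitochondrial Hsp70 chaperone gene, by -0.21 ± 0.15.

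**Figure D4:**
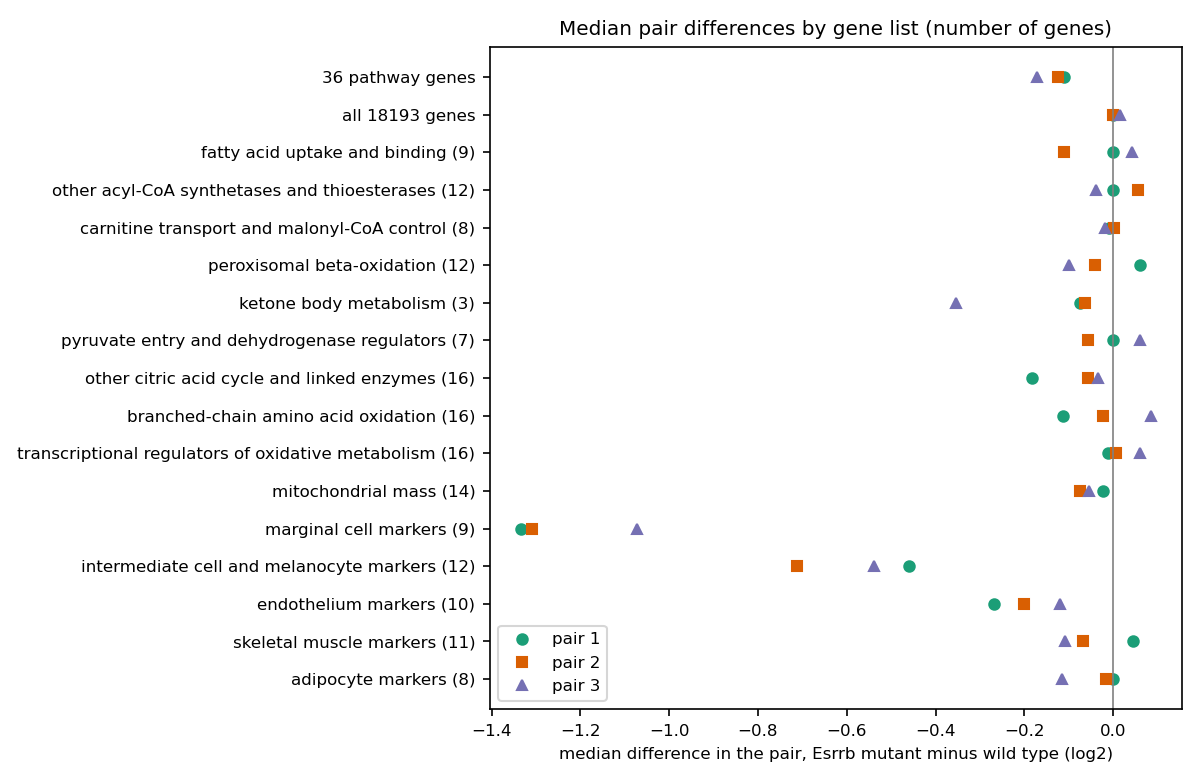
Median log2 difference in each pair, Esrrb mutant minus wild type, for the 36 pathway genes, all genes, related gene lists and cell markers, with the number of genes in brackets. The 36 genes sit at -0.17 to -0.11, and marginal cell markers lie at -1.33 to -1.07. Most other metabolic lists straddle 0. Medians below 0 in every pair are also seen for other citric acid cycle enzymes (-0.18 to -0.03) and ketone body genes (-0.35 to -0.06). The same holds for mitochondrial mass genes (-0.07 to -0.02).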

How the data were processed

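The authors deposited log2 values for each probe set that they had made with RMA, as the submitters' processing notes name it, with no version or settings. The log2 scale is inferred from the range of 2.33 to 14.6. They were used as deposited, without a filter on level. The array, its 6 hybridisations and the lack of detection calls limit the precision, and signal over background is unknown.

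Of 45101 probe sets 64 controls were left out. The platform annotation gave 1 gene symbol for 34945, several for 932 and none for 9160. All 36 measured symbols matched a RefSeq gene table (GRCm38.p6) through gene identifiers. Differences were tested with limma 3.58.1 in R 4.3.3 (lmFit and eBayes, two-sided), with genotype and replicate number as terms. The pairing comes from replicate numbers in the labels; the 2 arrays of a pair deviated together from their genotype means, with correlations of 0.879, 0.818 and 0.746 for pairs 1, 2 and 3. Exactly equal values in pair 1 (34.2% of probe sets, against 2.63% and 3.10% in pairs 2 and 3) were found; whether pairs were processed separately before deposit was not tested.

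Data for 45037 probe sets were simulated on the real pair means with independent normal noise. On these data the paired limma fit recovered 79 of 100 probe sets changed by 1 (log2) and 99 of 100 changed by 2, with 8 false calls. Recovery of changes below 1 was not tested. Mean differences of the measured pathway genes ran from -0.42 to 0.11, so these rates do not cover differences of that size. The genes and lists were chosen with earlier results of these data known. Array values were given for genes that passed, for the 8 with the smallest p, for the gene of each role with the highest mean signal and for Acadm, Cpt1a and Pdk4. From each related list the genes named are the 2 with the smallest p or the 1 with the highest mean signal. Esrrb was added as the targeted gene and Kcne1 as a marginal cell marker. Alternatives were other normalizations, a level filter, other eBayes options, no pairing, leaving out a pair, other probe set rules and another threshold.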

Additional observations from a re-analysis of the deposited data

How the results depend on the processing

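The count of 0 of 36 genes passing held in all 11 alternatives, with a smallest adjusted p between 0.199 and 1. The median difference stayed negative wherever it was recomputed and reached -0.16 with only probe sets without a suffix letter (32 genes measured). Over all probe sets, 92 passed at a threshold of 0.1 and 3 in the fit with no replicate block, in place of 42, and 0 to 7 when a pair was left out. In the fit with no replicate block 0 of the 36 genes were lower at an unadjusted p under 0.05; leaving out a pair gave 5 to 6 (2.85%, 2.18% and 2.96% of all genes without pairs 1, 2 and 3) and averaging the probe sets of a gene 8 (4.17%), in place of 13 (3.31%). The count lower in every pair stayed between 18 and 23 of the 36. Over all genes that share was 9.03% with all pairs, 26.2%, 15.2% and 17.1% without pairs 1, 2 and 3, 16.3% after quantile normalization, 16% after median centring and 11.9% with probe sets averaged. It has no value in the fit with no replicate block, because it uses the pairs. Of 148 values for the 15 genes given by array, 5 changed sign: Pdk4 without pair 1 (-0.16, within -0.16 to 0.24 when a pair was left out), Hadh without pair 2 (-0.0049, within -0.0049 to 0.0098) and with only probe sets without a suffix letter (-0.045), and Mdh2 (-0.090) and Cpt1a (0.069) when probe sets of a gene were averaged. The cause of these changes was not tested. The smallest difference that passed anywhere on the array was 0.81, against 0.42 for the largest among the 36 genes.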

Other observations

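Branched-chain amino acid oxidation, which delivers acetyl-CoA and succinyl-CoA to the same cycle, had a median of -0.04 over 16 measured genes, with 0 passing. Of the 16, 11 were below 0 and 3 were lower in every pair, against 48.6% and 9.03% of all genes. Mccc1, a subunit of methylcrotonyl-CoA carboxylase in leucine breakdown, had the smallest p of this list (-0.23 ± 0.15, limma adjusted p = 0.659). Of 3 measured ketone body genes, Bdh1, the hydroxybutyrate dehydrogenase, was lower in every pair (-0.13, -0.28 and -0.49, adjusted p = 0.555), and Oxct1, which activates ketone bodies for oxidation, was at 0.07 ± 0.14.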
